A study of Homo sapiens with 8 samples.

Results

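Integrins and cell adhesion molecules of the immunoglobulin (Ig) family were described across VHL status and oxygen in the renal cell carcinoma (RCC) line 786-O. The set holds the alpha and beta integrin subunits ITGA2 to ITGA11, ITGAV, ITGAE and ITGB1 to ITGB8, the Ig-family proteins VCAM1, ICAM1, ICAM2, ICAM3, ICAM5, ALCAM, MCAM, L1CAM, NCAM1, NCAM2, PECAM1, CADM1 and BCAM, and the collagen receptors DDR1 and DDR2. A gene was taken where the array annotation gave a transcript cluster (the probes for 1 transcribed locus) a single symbol, and the cluster with the highest mean over the arrays stood for the gene. Of 36 listed genes 35 were found in this way, among 18417 genes of the array. ITGA1, whose cluster carries several symbols, was not analysed here.

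786-O cells lack functional VHL, which recruits HIFα subunits to a ubiquitin ligase for their degradation. The 4 groups were VHL+ cells under hypoxia, VHL+ cells under normoxia, VHL- cells under hypoxia and VHL- cells under normoxia, each kept for 24 h and each measured on 2 Affymetrix gene arrays of total RNA (8 arrays), which the labels name biological replicates. VHL+ cells carried a vector for VHL overexpression. VHL- cells were untransfected and carried no empty vector, so that VHL, the vector and the stable transfection cannot be told apart. All cells were of this 1 line, hypoxia was 1% oxygen according to the methods, and no other treatment was given. Nothing beyond the word biological says that the replicates came from separate cultures, and p values measure the spread between these arrays.

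Integrins are heterodimers of an alpha and a beta subunit that tie the cell to the matrix and, through talin and kindlin, to actin. The alpha subunit largely sets the ligand: ITGA2 binds collagen, ITGA3 and ITGA6 bind laminin, and ITGA5 and ITGAV bind proteins with an RGD motif such as fibronectin and vitronectin. Ig-family molecules bind cells to cells. VCAM1 and the ICAMs are ligands of leukocyte integrins, and VCAM1 is also known from renal tubule cells and RCC. L1CAM, NCAM1, ALCAM, MCAM and CADM1 take part in contacts between neighbouring cells.

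The transfected gene, VHL, had log2 signals of 9.08 and 9.16 in VHL+ cells under hypoxia and of 8.85 and 8.86 in those under normoxia, against 8.23 to 8.51 on the 4 arrays of VHL- cells. The groups did not overlap. Array medians lay between 6.60 and 6.91. The highest was that of VHL+ cells under hypoxia, replicate 1, and the lowest that of VHL- cells under hypoxia, replicate 1. The tubule and carcinoma markers PAX8, KRT8, KRT18, VIM, CDH6 and CDH2 were above the array median on all 8 arrays. The measured markers of leukocytes (PTPRC, CD3E, CD14, LCP2), endothelium (CDH5, KDR, TEK, VWF) and fibroblasts (PDGFRB, THY1, DCN) were below it on all 8. In RNA of whole cultures, fewer cells with a transcript and less of it per cell cannot be told apart.

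Under normoxia, VHL+ vs. VHL- cells differed in 6 members: ITGA6, ITGB6 and L1CAM were higher, and VCAM1, ITGA2 and DDR1 were lower. They are 17.1% of the 35 members at an adjusted p under 0.05 (limma, Benjamini-Hochberg over all transcript clusters), beside 4.77% of all 33297 clusters and 6.57% of genes with 1 cluster each (3.17% higher and 3.40% lower). The median log2 fold change was -0.05 over the members and -0.04 over all clusters. Under hypoxia, 8 members (22.9%) were called, beside 11.6% of all clusters and 16.0% of genes with 1 cluster each. ITGA6, L1CAM, ICAM1, ICAM3, MCAM and CADM1 were higher, and VCAM1 and ITGA2 were lower. Of genes with 1 cluster each, 14.3% were called higher and 1.72% lower under hypoxia, and the median of all clusters was shifted by 0.16, which is also the median of the members. With quantile normalization, which took that median shift to 0.00, 2 members were higher (L1CAM and ITGA6) and 3 lower (VCAM1, DDR1 and ITGA3) under hypoxia. The 4 genes VCAM1, ITGA2, ITGA6 and L1CAM were called in the same direction in both oxygen conditions. The group means of the 2 comparisons share no arrays. Both calls use 1 estimate of the spread from all 8 arrays and the same transfected cells, so they are not independent. Without the 1st array of VHL+ cells under hypoxia, L1CAM alone was called under hypoxia, and without the 2nd, VCAM1, ITGA6 and L1CAM were. Under normoxia these 3 genes also were the ones called without either array of VHL+ cells under hypoxia.

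**Figure D1:**
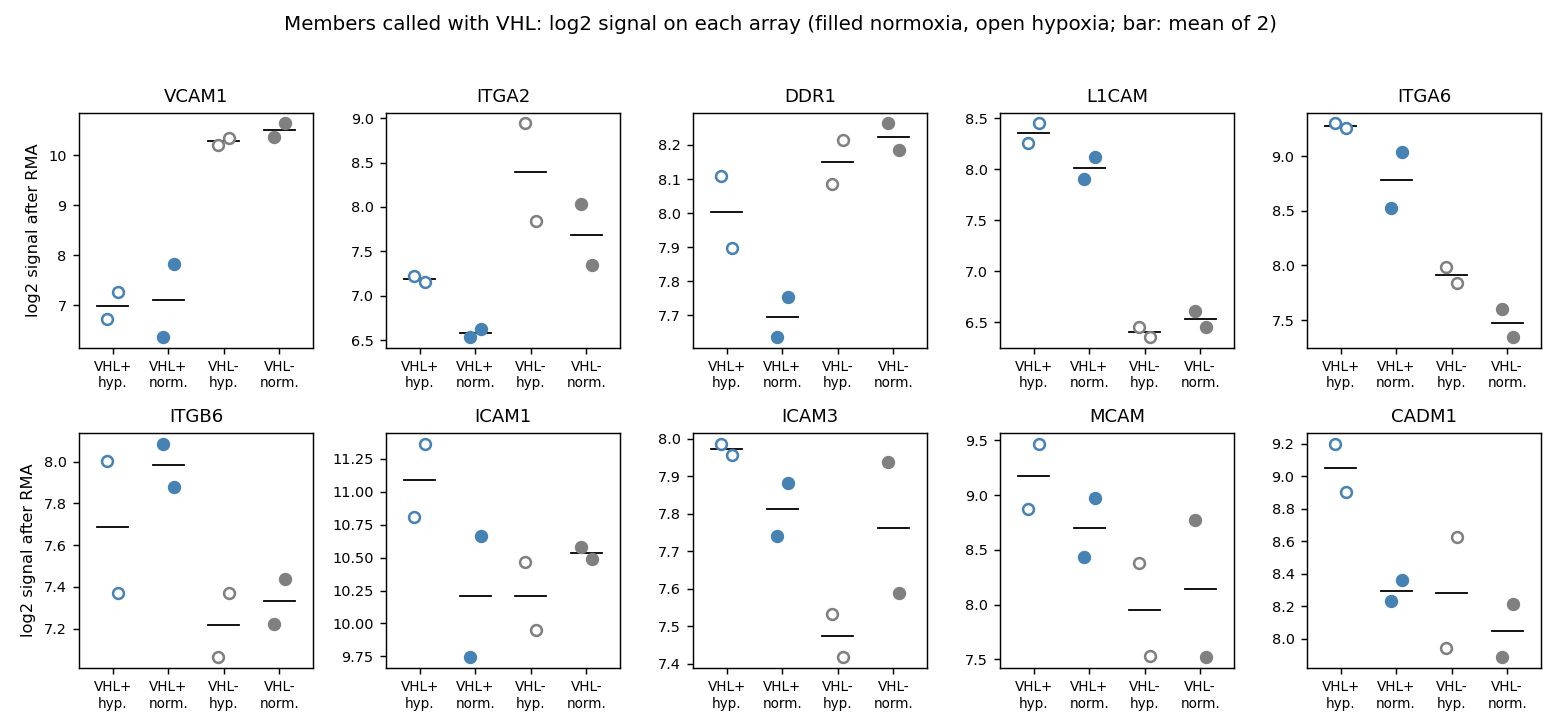
Log2 signal after RMA (y axis, a separate scale for each gene) of the 10 members called with VHL, on each of the 8 arrays, by group along the x axis. Circles are arrays, filled under normoxia and open under hypoxia, and bars are means of 2 arrays. VCAM1 stays below 8 on the 4 VHL+ arrays and above 10 on the 4 VHL- arrays, and L1CAM and ITGA6 are higher on all VHL+ arrays than on any VHL- array.

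Among the collagen-binding alpha subunits, ITGA2 was the one called. Under normoxia, ITGA2 had log2 signals of 6.54 and 6.63 in VHL+ cells, against 8.04 and 7.34 in VHL- cells. Its hypoxia values were 7.22 and 7.15 in VHL+ cells, against 8.94 and 7.84 in VHL- cells. All VHL+ arrays were below the VHL- arrays of the same oxygen condition, and the VHL- replicates stood further apart than the VHL+ ones. ITGA2 was 2.16 times lower with VHL under normoxia (log2 fold change -1.11, SE 0.25, adjusted p = 0.0133) and 2.31 times lower under hypoxia (-1.21, SE 0.25, adjusted p = 0.00454). Both VHL+ normoxia arrays were below their array median, in the range of the members that were below it on each array. After quantile normalization the fold changes were -1.10 and -1.43 and the calls were lost (adjusted p = 0.203 under normoxia and 0.102 under hypoxia). The value under hypoxia was -0.66 (adjusted p = 0.0194) without VHL- hypoxia replicate 1 and -1.75 without replicate 2. Both calls were also lost without VHL+ hypoxia replicate 1 (0.232 and 0.248) or replicate 2 (0.232 and 0.143). ITGA10 ran from 6.00 to 6.26 and ITGA11 from 6.03 to 6.33 over the 8 arrays, below the array median on each.

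Of the laminin-binding subunits, ITGA6, the alpha chain of α6β1 and α6β4, was higher in VHL+ cells. Its log2 signals under normoxia were 8.53 and 9.04 in VHL+ cells, against 7.60 and 7.35 in VHL- cells. Those under hypoxia were 9.30 and 9.26 in VHL+ cells, against 7.99 and 7.84 in VHL- cells. No VHL+ array overlapped with a VHL- array. ITGA6 was 2.47-fold higher under normoxia (log2 fold change 1.31, SE 0.16, adjusted p = 5.90e-05) and 2.58-fold higher under hypoxia (1.37, SE 0.16, adjusted p = 3.02e-05). It kept both calls after quantile normalization, at 1.31 (adjusted p = 0.00669) and 1.10 (adjusted p = 0.0106). The call under hypoxia was lost, at adjusted p = 0.0532, without VHL+ hypoxia replicate 1. ITGA3, the alpha chain of α3β1, had log2 fold changes of -0.39 (adjusted p = 0.147) and -0.35 (adjusted p = 0.133), with 11.20 to 11.51 on the 4 VHL+ arrays, against 11.68 to 11.75 on the 4 VHL- arrays. The 2 groups of arrays did not overlap, and under hypoxia ITGA3 passed only after quantile normalization (-0.55, adjusted p = 0.0221). ITGA7 ran from 6.15 to 6.50.

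No RGD-binding alpha subunit passed with VHL. ITGAV, the common alpha chain of the vitronectin receptors, had log2 fold changes of 0.10 (adjusted p = 1.00) under normoxia and 0.39 (adjusted p = 0.116) under hypoxia, within a range of 10.56 to 11.33. ITGA5, the fibronectin receptor chain, ran from 9.65 to 10.54, and the VHL groups overlapped in both oxygen conditions. ITGA8 ran from 5.83 to 6.06.

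Of the beta partners of ITGAV, ITGB6 was higher with VHL under normoxia. Under normoxia, ITGB6 had log2 signals of 8.09 and 7.88 in VHL+ cells, against 7.22 and 7.44 in VHL- cells, and under hypoxia 8.01 and 7.37 in VHL+ cells, against 7.06 and 7.37 in VHL- cells. The arrays overlapped under hypoxia only. ITGB6 was 1.57-fold higher under normoxia (log2 fold change 0.65, SE 0.18, adjusted p = 0.0458) and had 0.47 under hypoxia (95% interval 0.09 to 0.85, adjusted p = 0.111), and the difference between the conditions was not called (interaction -0.18, adjusted p = 0.701). The call under normoxia was lost after quantile normalization (0.69, adjusted p = 0.112) and, with the fold change unchanged, without either VHL+ hypoxia array (0.0949). It was also lost without VHL+ normoxia replicate 1 (0.104) and without VHL- normoxia replicate 1 (0.166). Without either VHL+ normoxia array or without VHL- hypoxia replicate 2, ITGB6 was called under hypoxia too (adjusted p = 0.0409 and 0.0160). ITGB8, which like ITGB6 serves in the activation of latent TGFβ, had 0.60 under hypoxia (adjusted p = 0.138) and 0.08 under normoxia (adjusted p = 1.00), and without VHL- hypoxia replicate 1 it was called at 0.86 under hypoxia (adjusted p = 0.00252). ITGB3 ran from 10.38 to 11.26 and ITGB5 from 10.64 to 11.42, and neither was called. ITGB1, the partner of most alpha subunits, lay between 10.94 and 11.20 on all arrays, with log2 fold changes for VHL of -0.13 (95% interval -0.41 to 0.15) and -0.09 (-0.37 to 0.19). ITGB4, the partner of ITGA6 in hemidesmosomes, ran from 6.22 to 6.58 and was below the array median on each array.

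The integrin chains known from leukocytes were low and not called with all 8 arrays in the fit. ITGA4, the main receptor chain for VCAM1, ran from 5.95 to 6.48, ITGA9 from 6.20 to 6.46 and ITGAE from 6.23 to 6.67. ITGB2 ran from 6.47 to 7.00 and ITGB7 from 6.43 to 6.94, and ITGB2 was called higher under hypoxia without VHL- hypoxia replicate 2 (0.52, adjusted p = 0.0437). ITGA4, ITGA9 and ITGAE were below the array median on all 8 arrays. In all, 11 members were below it on each array, with signals between 5.83 and 6.67 (ITGA4, ITGA7, ITGA8, ITGA9, ITGA10, ITGA11, ITGAE, ITGB4, NCAM2, PECAM1 and DDR2), and 18 members were above it on each.

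Of the ligands of leukocyte integrins, VCAM1 was lower in VHL+ cells in both oxygen conditions. ICAM1 and ICAM3 were called higher in VHL+ cells under hypoxia and were not called under normoxia. VCAM1 had log2 signals under normoxia of 6.36 and 7.83 in VHL+ cells, against 10.36 and 10.64 in VHL- cells. The values under hypoxia were 6.73 and 7.26 in VHL+ cells, against 10.22 and 10.35 in VHL- cells. The gap between the groups was wider than any gap between replicates, and both 1st-replicate arrays of VHL+ cells were below their array median for VCAM1. VCAM1 was 10.6 times lower under normoxia (log2 fold change -3.40, SE 0.29, adjusted p = 7.25e-07) and 9.78 times lower under hypoxia (-3.29, SE 0.29, adjusted p = 1.16e-06). The replicates of VHL+ cells under normoxia stood 1.46 apart. Without VHL+ hypoxia replicate 1 the adjusted p under hypoxia was 0.0532.

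ICAM1, a ligand of the β2 integrins of leukocytes, had 10.81 and 11.37 in VHL+ cells, against 10.46 and 9.95 in VHL- cells, under hypoxia. Under normoxia it had 9.74 and 10.67 in VHL+ cells, against 10.58 and 10.49 in VHL- cells, and the groups overlapped. The log2 fold change was 0.88 (SE 0.24, adjusted p = 0.0215) under hypoxia and -0.33 (95% interval -0.83 to 0.17, adjusted p = 0.749) under normoxia. Without VHL+ normoxia replicate 2, ICAM1 was called lower in VHL+ cells under normoxia (-0.79, adjusted p = 0.00951). ICAM3 had 7.99 and 7.96 in VHL+ cells, against 7.53 and 7.42 in VHL- cells, under hypoxia, and 7.74 and 7.88 in VHL+ cells, against 7.94 and 7.59 in VHL- cells, under normoxia. It was higher by 0.50 (SE 0.15, adjusted p = 0.0318) under hypoxia, with 0.05 (adjusted p = 1.00) under normoxia. After quantile normalization neither passed under hypoxia, with adjusted p = 0.343 for ICAM1 and 0.417 for ICAM3. Both also failed without VHL+ hypoxia replicate 1 (0.199 and 0.249) or replicate 2 (0.256 and 0.127), and ICAM3 without VHL- hypoxia replicate 1 (0.0536) or replicate 2 (0.107). ICAM2 ran from 6.50 to 6.99 and ICAM5 from 7.03 to 7.37.

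L1CAM, a neural adhesion molecule also found in kidney tubules and carcinomas, had the largest rise of the members. Under normoxia, L1CAM had log2 signals of 7.91 and 8.12 in VHL+ cells, against 6.61 and 6.45 in VHL- cells. Under hypoxia, they were 8.25 and 8.45 in VHL+ cells, against 6.45 and 6.36 in VHL- cells. All 4 VHL- arrays were below their array median and all 4 VHL+ arrays above it. The VHL- signals, 6.36 to 6.61, lie within the range of the members below the median on each array, and whether they were above background was not tested, so that the folds are those of signals. The difference was 2.79-fold under normoxia (log2 fold change 1.48, SE 0.14, adjusted p = 2.59e-06) and 3.85-fold under hypoxia (1.94, SE 0.14, adjusted p = 9.49e-08). Both held after quantile normalization (1.53, adjusted p = 0.00154, and 1.71, adjusted p = 0.00114) and with each array left out in turn.

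MCAM, an adhesion molecule of vessels and melanoma, was called higher in VHL+ cells under hypoxia. MCAM signals were 8.88 and 9.47 in VHL+ cells, against 8.38 and 7.53 in VHL- cells, under hypoxia, and 8.43 and 8.97 in VHL+ cells, against 8.77 and 7.52 in VHL- cells, under normoxia. The arrays overlapped under normoxia, where a single VHL- array was low. The log2 fold change was 1.22 (SE 0.31, adjusted p = 0.0160) under hypoxia and 0.56 (95% interval -0.10 to 1.22, adjusted p = 0.531) under normoxia. Under hypoxia it was 1.65 without VHL- hypoxia replicate 1 and 0.79 without replicate 2. Without VHL- normoxia replicate 1 the log2 fold change of MCAM under normoxia was 1.18, with a single VHL- array left in the comparison. It stayed at 0.56 without either VHL- hypoxia array. MCAM was called in these fits. In the fit without VHL- normoxia replicate 1, p followed the size of the fold change alone, so the call does not weigh the gap between the MCAM replicates. CADM1, which binds like molecules on the next epithelial cell, had 9.20 and 8.90 in VHL+ cells, against 7.94 and 8.62 in VHL- cells, under hypoxia, and 8.23 and 8.36 in VHL+ cells, against 7.89 and 8.21 in VHL- cells, under normoxia. Its log2 fold change was 0.77 (SE 0.19, adjusted p = 0.0122) under hypoxia and 0.25 (adjusted p = 0.797) under normoxia. After quantile normalization the adjusted p under hypoxia was 0.382 for MCAM and 0.178 for CADM1. Without VHL+ hypoxia replicate 1 it was 0.248 for MCAM and 0.361 for CADM1, without replicate 2 it was 0.242 and 0.112, and CADM1 also failed without VHL- hypoxia replicate 1 (0.43, adjusted p = 0.203).

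The other Ig-family members were not called in the fit to all 8 arrays without a replicate block or trend and robust estimation. With trend and robust estimation, BCAM was called higher under hypoxia (adjusted p = 0.000628) and ALCAM lower under normoxia (0.0368). With the replicate number as a block, BCAM (0.000665) and NCAM1 (0.000882) were called higher under hypoxia and ALCAM lower under normoxia (0.0224). In the block fit p followed the size of the fold change alone, so that a gene's own spread did not count. With all 8 arrays and no block, the SE under hypoxia was 0.22 for BCAM and 0.31 for NCAM1. ALCAM, a ligand of CD6, had 10.11 and 10.77 in VHL+ cells under normoxia, against 11.03 and 10.87 in VHL- cells, with a log2 fold change of -0.51 (adjusted p = 0.159). BCAM, a laminin receptor of the Ig family, had 0.65 (adjusted p = 0.0590) under hypoxia and 0.32 (adjusted p = 0.684) under normoxia, and NCAM1 had 0.64 (adjusted p = 0.217) under hypoxia and 0.23 under normoxia. Without VHL- hypoxia replicate 1 NCAM1 was called at 1.09 under hypoxia, and without VHL- normoxia replicate 1 at 0.91 under normoxia. A single VHL- array was left in each of these comparisons. Without either normoxia array of VHL+ or of VHL- cells, BCAM, NCAM1 and ITGB8 were called higher under hypoxia at unchanged fold changes. Those arrays are outside this comparison, so that only the estimate of the spread differed. Without a VHL- normoxia array, p followed the size of the fold change alone, whatever a gene's own spread. BCAM was also called under hypoxia without VHL- hypoxia replicate 2 (0.89, adjusted p = 0.000466). ALCAM was called lower under normoxia without VHL+ normoxia replicate 2 (-0.84, adjusted p = 0.00203) and without either VHL- hypoxia array (-0.51, adjusted p = 0.0291). NCAM2 ran from 5.88 to 6.07 and PECAM1, the endothelial marker, from 5.89 to 6.22. DDR1, a receptor tyrosine kinase for collagen, had 7.64 and 7.75 in VHL+ cells, against 8.26 and 8.18 in VHL- cells, under normoxia. Under hypoxia, DDR1 had 8.11 and 7.90 in VHL+ cells, against 8.09 and 8.21 in VHL- cells, where the groups overlapped. It was 1.44 times lower under normoxia (log2 fold change -0.53, SE 0.14, adjusted p = 0.0306), with -0.15 (95% interval -0.44 to 0.14, adjusted p = 0.529) under hypoxia. The call under normoxia remained after quantile normalization (adjusted p = 0.0136). Under hypoxia the value depended on the scaling, and DDR1 was called lower after quantile normalization (-0.40, adjusted p = 0.0314) and after median centring (-0.32, adjusted p = 0.0388). The normoxia call was lost without either VHL+ hypoxia array (0.0660), VHL+ normoxia replicate 1 (0.135), VHL- normoxia replicate 1 (0.272) or VHL- normoxia replicate 2 (0.133). DDR2 ran from 5.98 to 6.40.

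**Figure D2:**
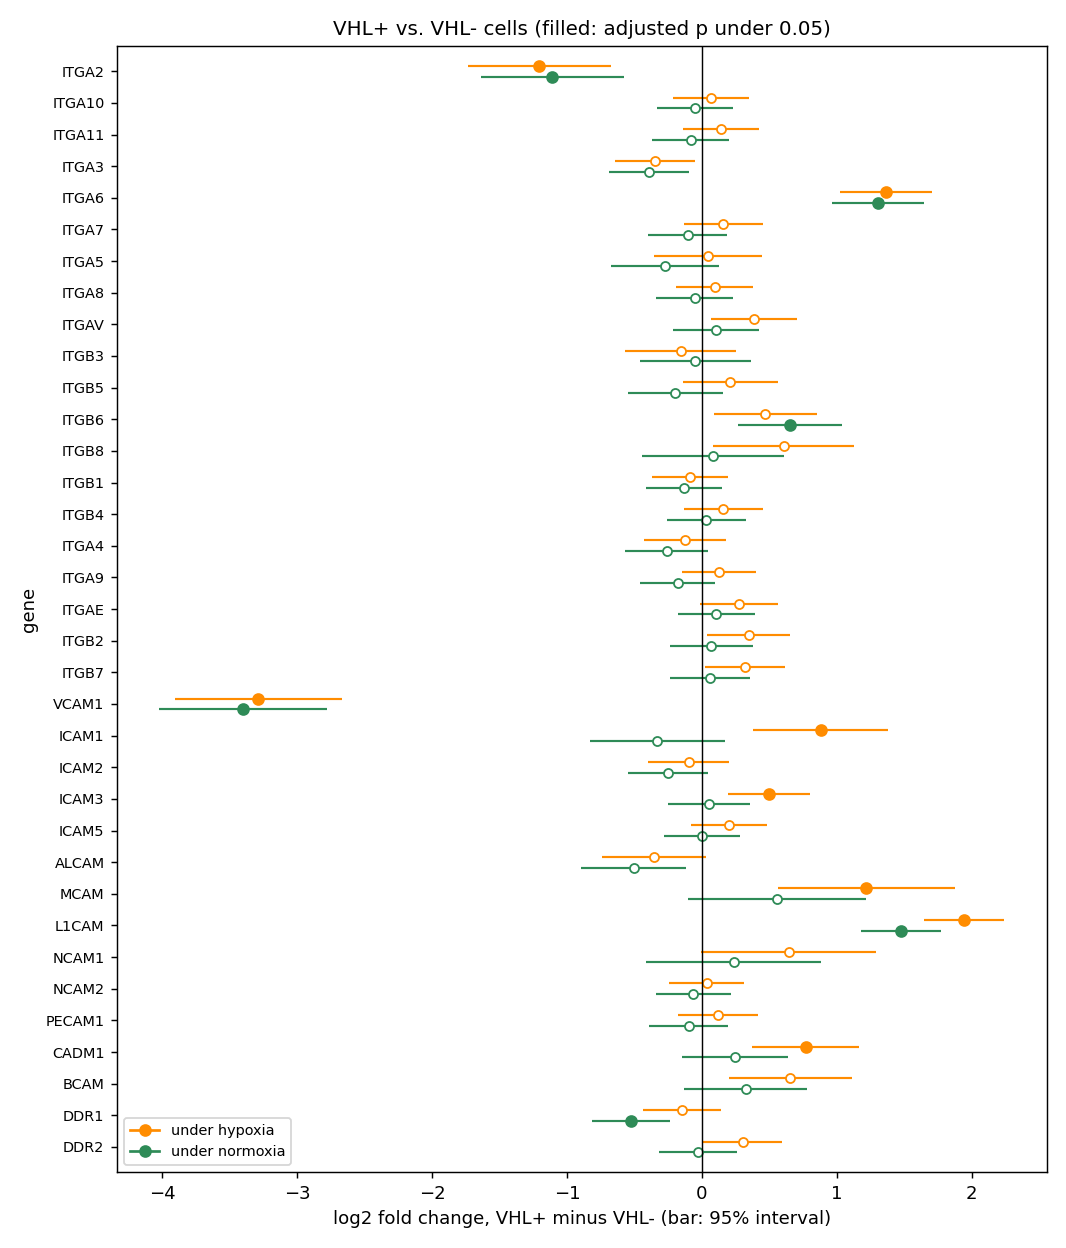
Log2 fold change of VHL+ over VHL- cells (x axis) for the 35 members (y axis), under hypoxia (orange) and normoxia (green), with 95% intervals from the fit over 8 arrays. Filled points passed an adjusted p of 0.05. VCAM1 lies at -3.29 and -3.40, ITGA2 is the other member called lower in both conditions, and L1CAM and ITGA6 are the members called higher in both.

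The promoters of the 3 genes whose calls with VHL remained in both conditions after quantile normalization are shown, because their transcripts moved in opposite directions with VHL. They are the 250 bases before the RefSeq transcription start (GRCh38.p14) and were searched on both strands for ACGTG and GCGTG, cores bound by HIF, and for GGGNNNNCCC, a form of NF-κB site that was added after the VCAM1 promoter had been seen. Capitals mark the matches. The first sequence is VCAM1, chr1:100719492-100719741, plus strand, with 2 matches of GGGNNNNCCC that begin 77 and 62 bases before the start and none of the HIF cores. L1CAM (chrX:153875945-153876194, minus strand, the first of 2 windows) has 1 match of GGGNNNNCCC and none of the HIF cores. Both L1CAM windows lie inside the annotated gene (chrX:153861514-153886173). Its 5' end, at 153886173 on the minus strand, was not searched. ITGA6 has 2 windows, both on the plus strand. The first (chr2:172427086-172427335) has ACGTG on both strands, overlapping in CACGTG, and GCGTG on the other strand, and the second (chr2:172427336-172427585) has 1 ACGTG on the minus strand.
VCAM1: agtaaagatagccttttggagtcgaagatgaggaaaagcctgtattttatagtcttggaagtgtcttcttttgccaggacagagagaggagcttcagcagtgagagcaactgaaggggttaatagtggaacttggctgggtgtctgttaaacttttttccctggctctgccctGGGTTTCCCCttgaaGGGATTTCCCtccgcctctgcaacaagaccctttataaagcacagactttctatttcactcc
L1CAM: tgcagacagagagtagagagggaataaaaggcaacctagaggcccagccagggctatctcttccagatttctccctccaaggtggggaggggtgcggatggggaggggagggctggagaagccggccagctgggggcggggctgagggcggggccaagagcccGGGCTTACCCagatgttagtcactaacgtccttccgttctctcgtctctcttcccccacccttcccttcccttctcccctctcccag
ITGA6, first window: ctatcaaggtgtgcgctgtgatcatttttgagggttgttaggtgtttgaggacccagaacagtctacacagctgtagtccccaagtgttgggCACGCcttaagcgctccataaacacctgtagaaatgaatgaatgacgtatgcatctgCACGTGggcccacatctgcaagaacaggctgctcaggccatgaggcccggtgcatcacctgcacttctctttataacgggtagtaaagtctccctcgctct
ITGA6, second window: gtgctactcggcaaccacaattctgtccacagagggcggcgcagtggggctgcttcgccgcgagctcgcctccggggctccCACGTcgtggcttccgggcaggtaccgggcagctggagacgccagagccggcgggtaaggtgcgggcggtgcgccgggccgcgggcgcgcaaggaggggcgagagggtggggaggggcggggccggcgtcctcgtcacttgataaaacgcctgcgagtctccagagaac
In windows of 250 bases before and 50 after a start, ACGTG was found in 21.4% of all 35116 RefSeq windows, GCGTG in 36.5% and GGGNNNNCCC in 17.8%. RefSeq windows matched 25 of the 35 members (43 windows), some of which overlap within a gene. Of these member windows, 5 (11.6%) held ACGTG, 17 (39.5%) held GCGTG and 15 (34.9%) held GGGNNNNCCC. A match says that these letters are in the window, and binding was not measured.

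Hypoxia vs. normoxia had no member past the threshold in either cell type. In VHL+ cells 0 of 35 members were called, beside 0.153% of all clusters, with a lowest adjusted p of 0.201. An unadjusted p under 0.05 was found for 10 members (28.6%), beside 6.16% of all clusters. The median log2 fold change was 0.15 over members and 0.09 over all clusters. CADM1 had a log2 fold change of 0.76 (95% interval 0.36 to 1.15, adjusted p = 0.201), with 9.20 and 8.90 under hypoxia, against 8.23 and 8.36 under normoxia. ICAM1 had 0.88 (0.38 to 1.38, adjusted p = 0.275) and ITGB8 had 0.86 (0.34 to 1.38, adjusted p = 0.339), and in each of these 3 genes both hypoxia arrays of VHL+ cells were above both normoxia arrays. These 3 genes were called without VHL+ normoxia replicate 2, without either VHL- hypoxia array and without either VHL- normoxia array. The VHL- arrays are outside this comparison, so that leaving them out changed only the estimate of the spread. VCAM1 was called lower, at adjusted p = 0.0489, without VHL+ normoxia replicate 1. In VHL- cells 0 of 35 were called, beside 0.0661% of all clusters, with a lowest adjusted p of 0.680. The unadjusted p was under 0.05 for 2 members, ITGA2 and ITGA6 (5.71%), beside 5.30% of all clusters and 4.12% of genes with 1 cluster each. The median was -0.07 over members and -0.12 over all clusters. Without VHL- hypoxia replicate 2 ITGA2 was called higher, without VHL- normoxia replicate 1 ITGA2, ITGB8 and NCAM1 were, and without VHL- normoxia replicate 2 MCAM was called lower.

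ITGA2 and ITGA6, the 2 alpha subunits with opposite VHL effects, had similar differences with hypoxia in both cell types. ITGA2 had a log2 fold change of 0.61 (95% interval 0.07 to 1.14, adjusted p = 0.722) in VHL+ cells and 0.70 (0.17 to 1.24, adjusted p = 0.680) in VHL- cells. ITGA6 had 0.50 (0.16 to 0.84, adjusted p = 0.483) in VHL+ cells and 0.44 (0.10 to 0.78, adjusted p = 0.706) in VHL- cells. Neither gene passed in either cell type with all 8 arrays and no replicate block in the fit. With the replicate number as a block, ITGA2 was called higher in VHL+ cells (adjusted p = 0.0189) and in VHL- cells (0.00334). In that fit p followed the size of the fold change alone, not the spread of ITGA2. VCAM1 had -0.10 (-0.72 to 0.52) in VHL+ cells and -0.22 (-0.84 to 0.40) in VHL- cells.

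**Figure D3:**
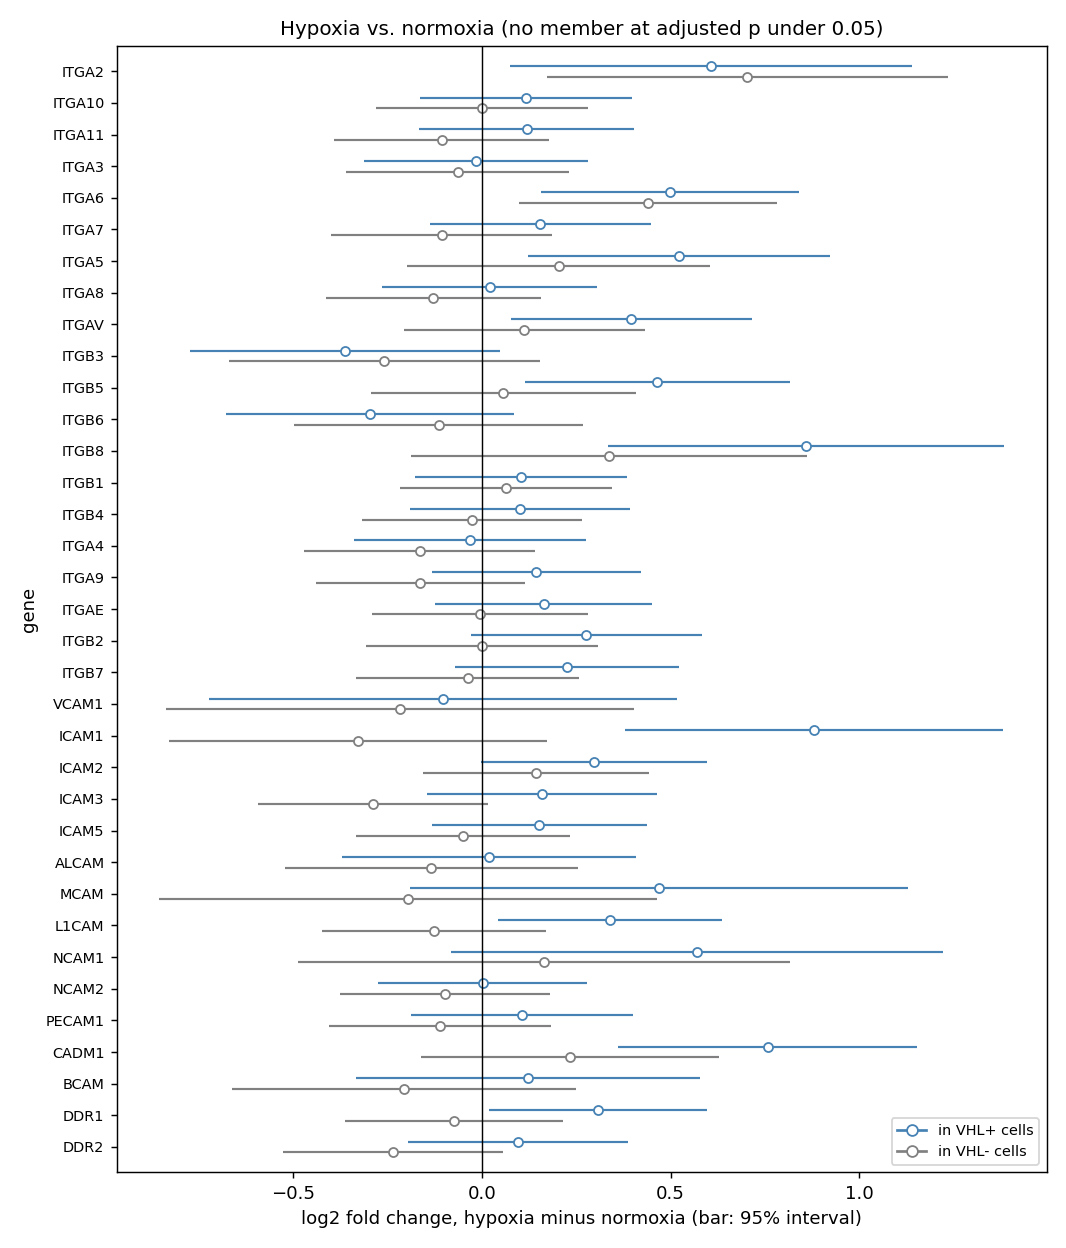
Log2 fold change of hypoxia over normoxia (x axis) for the 35 members (y axis) in VHL+ cells (blue) and VHL- cells (grey), with 95% intervals from the fit over 8 arrays. All points are open because none passed an adjusted p of 0.05. ITGA2 and ITGA6 lie to the right of 0 in both cell types, and ICAM1 lies at 0.88 in VHL+ cells and -0.33 in VHL- cells.

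The interaction, the hypoxia effect in VHL+ cells minus that in VHL- cells, was not called for any member (0 of 35, beside 0.00601% of all clusters). For 3 members (8.57%) the unadjusted p was under 0.05, beside 5.61% of all clusters and 5.86% of genes with 1 cluster each. ICAM1 had the largest value, 1.21 (95% interval 0.50 to 1.92, unadjusted p = 0.00209, adjusted p = 0.651, limma). It was called at 1.67 without VHL+ normoxia replicate 2 and at 1.47 without VHL- hypoxia replicate 1. ICAM1 was also called at 1.16 without VHL- normoxia replicate 1 and at 1.26 without VHL- normoxia replicate 2, in the last case beside MCAM and NCAM1. Without a VHL- normoxia array, p followed the size of the fold change alone. ICAM1 was not called without either VHL+ hypoxia array, VHL+ normoxia replicate 1 or VHL- hypoxia replicate 2. L1CAM had 0.47 (0.05 to 0.89) and ICAM3 0.45 (0.02 to 0.88), at the same adjusted p of 0.651. The median was 0.22 over the members and 0.21 over all clusters, and it was 0.00 over all clusters after quantile normalization. The intervals for VCAM1 (-0.76 to 0.99), ITGA2 (-0.85 to 0.66) and ITGA6 (-0.42 to 0.54) include 0 and leave room for differences of this size.

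Several members differed between replicates as much as between groups. In VHL- cells, replicate 1 was above replicate 2 by more than 0.5 in both oxygen conditions for 6 members (ITGA2, ITGA5, ITGB3, ITGB8, MCAM and NCAM1), and for 0 members the other way. NCAM1 stood 0.89 apart under hypoxia and 1.35 under normoxia, and MCAM 0.85 and 1.25. In VHL+ cells, replicate 2 was above replicate 1 by more than 0.5 in both conditions for 3 members (VCAM1, ICAM1 and MCAM), and for 0 members the other way. For MCAM the replicates of the 2 cell types thus ran in opposite directions. BCAM was lower in replicate 1 in all 4 groups.

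**Figure D4:**
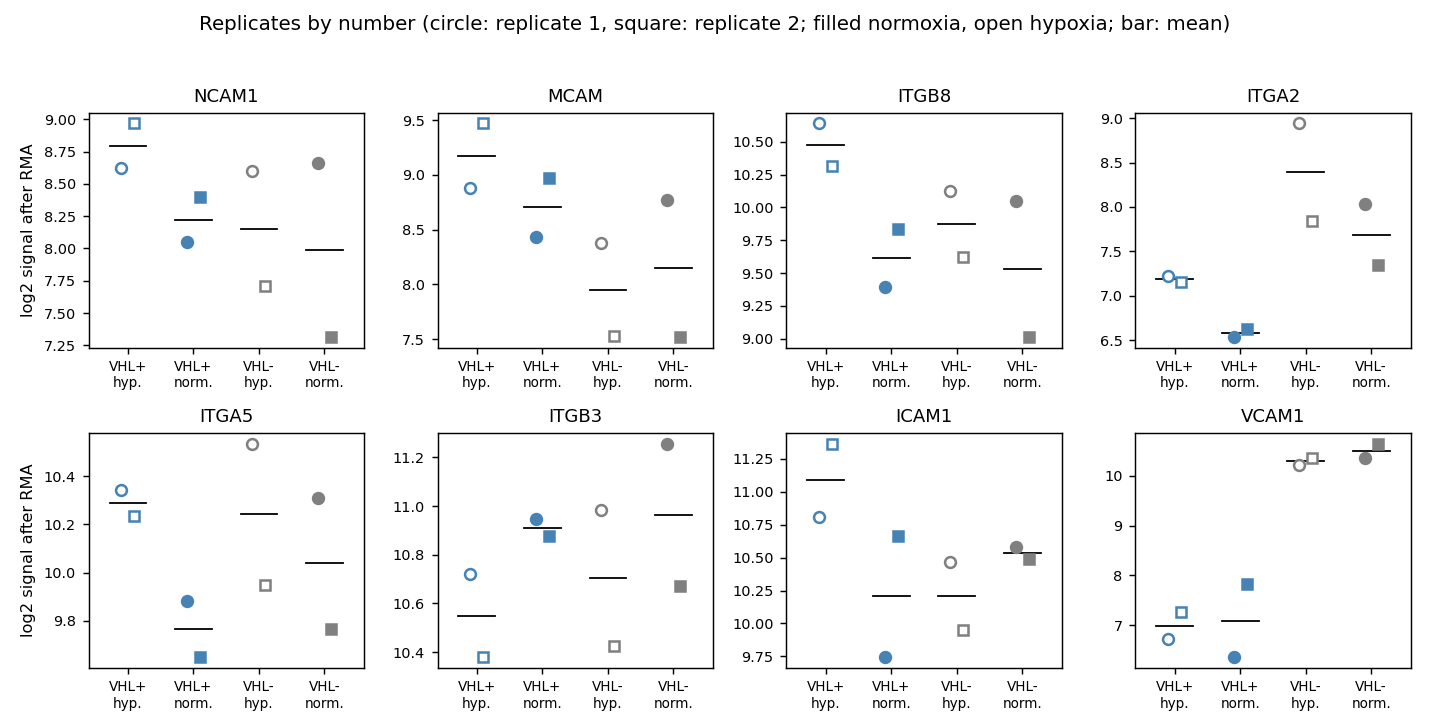
Log2 signal after RMA (y axis, a separate scale for each gene) of 8 members whose replicates stood apart, by group along the x axis. Circles are replicate 1 and squares replicate 2, filled under normoxia and open under hypoxia, and bars are means. In VHL- cells the circle lies above the square for NCAM1, MCAM, ITGB8, ITGA2, ITGA5 and ITGB3 in both conditions, and in VHL+ cells the square lies above the circle for MCAM, ICAM1 and VCAM1.

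The partners of the members were read from 4 lists. Of 29 measured genes of focal adhesions and integrin activation, 3 were higher and 0 lower in VHL+ vs. VHL- cells under normoxia, where 3.17% of genes with 1 cluster each were called higher and 3.40% lower. They were TLN2 (log2 fold change 0.90, adjusted p = 0.00536), a talin that links integrins to actin, TNS1 (0.93, adjusted p = 0.0392), a tensin of fibrillar adhesions, and CSRP1 (0.72, adjusted p = 0.0115), a LIM protein of actin bundles. Under hypoxia 10 were higher and 0 lower, where 14.3% of genes with 1 cluster each were called higher and 1.72% lower. Among the 10 were TNS1 (1.14, adjusted p = 0.00644), TLN2 (1.06, adjusted p = 0.000929), CSRP1 (0.91, adjusted p = 0.00123) and LIMS1 (0.70, adjusted p = 0.00576), the ILK partner PINCH. The list median was 0.28 under hypoxia and 0.01 under normoxia, beside 0.16 and -0.04 over all clusters. The count of 10 was 2 (TLN2 and CSRP1) after quantile normalization and 0 without either VHL+ hypoxia array, and it was 6 without VHL- hypoxia replicate 1. The count of 3 under normoxia was also 0 without either VHL+ hypoxia array, and after quantile normalization 2 were higher and 1 lower.

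Of 12 integrin ligands, VHL+ cells had 2 higher and 1 lower under normoxia, and 4 higher and 1 lower under hypoxia, beside the same shares of all genes (3.17% and 3.40% under normoxia, 14.3% and 1.72% under hypoxia). CCN2 (CTGF), a matricellular ligand of several integrins, had 1.56 (adjusted p = 6.51e-05) under normoxia and 0.94 (adjusted p = 0.00452) under hypoxia. THBS1, thrombospondin, had 0.99 (adjusted p = 0.000863) and 1.28 (adjusted p = 5.17e-05), and EDIL3, an RGD ligand of αvβ3, was lower at -1.31 (adjusted p = 0.000120) and -1.03 (adjusted p = 0.000852). CCN1 (1.08, adjusted p = 0.0297) and MFGE8 (0.65, adjusted p = 0.0127) were called higher under hypoxia. After quantile normalization, THBS1 and EDIL3 remained under hypoxia, and CCN2 (adjusted p = 0.263), CCN1 (0.365) and MFGE8 (0.0801) did not. Without VHL+ hypoxia replicate 1, 1 was higher and 1 lower under hypoxia, without replicate 2, 2 were higher and 0 lower (EDIL3 at adjusted p = 0.0903), and without VHL- hypoxia replicate 1, 2 were higher and 1 lower. CCN1 was 0.49 without VHL- hypoxia replicate 1 and 1.68 without replicate 2, and CCN2 under hypoxia was 0.61 without VHL+ hypoxia replicate 1. Under normoxia the count was 6 without VHL+ normoxia replicate 1 and 5 without either VHL- hypoxia array or VHL- normoxia replicate 2. Fibronectin (FN1) had 0.12 and 0.10 and did not pass.

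Of 8 membrane proteins that bind integrins laterally, the tetraspanins CD82 (-1.18, adjusted p = 0.00447) and CD63 (-0.52, adjusted p = 0.0300) were lower with VHL under normoxia, and 0 were called under hypoxia, where CD82 had -0.37 (adjusted p = 0.358). CD82 failed after quantile normalization (adjusted p = 0.120), and neither passed without a VHL+ hypoxia array (0.150 for CD82 and 0.0780 for CD63). CD63 also failed without VHL+ normoxia replicate 1 (0.157), VHL- normoxia replicate 1 (0.250) or VHL- normoxia replicate 2 (0.188). Of 17 further adhesion molecules, mostly of the Ig family, CD99 was lower under normoxia (-0.90, adjusted p = 0.0104) and 0 were called under hypoxia, with CD99 at -0.50 (adjusted p = 0.122). With each array left out in turn, 0 to 4 of the 17 were called under hypoxia. The CD99 call was lost after quantile normalization (0.0593), without either VHL+ hypoxia array (0.170) and without VHL- normoxia replicate 2 (-0.55, adjusted p = 0.168). No gene of the 4 lists was called for hypoxia or for the interaction.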

How the data were processed

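Total RNA of 786-O cells had been hybridized to 8 Affymetrix gene arrays, 2 for each of 4 groups taken from the transfection and oxygen labels. The authors deposited a log2 signal for each transcript cluster, after Robust Multichip Average (RMA) with Partek Genomic Suite. The version of Partek is not given in the sources used here. RMA summarises and quantile-normalizes probes, yet the deposited array medians ran from 6.60 to 6.91, and a shift of all clusters enters every fold change. Replicates correlated at 0.991 to 0.994 across clusters. The number of arrays limits the precision.

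All 33297 clusters were fitted with limma 3.58.1 in R 4.3.3, with a mean for each group (degrees of freedom 4 residual, 14.0 prior). After quantile normalization the prior degrees of freedom were 2.82. The p values were adjusted by Benjamini-Hochberg over all clusters at a threshold of 0.05. Symbols came from the platform annotation (19460 clusters with 1 symbol, 1754 with several, 12083 with none). Promoters came from RefSeq (GRCh38.p14). Members called in at least 1 comparison are named with their values on each array, the others with their range, and partner lists with up to 4 called genes in each direction. FN1 and the other condition's values of called partners were named after their values had been seen. The members and lists were chosen with earlier results of these data known. Fits were tested on simulated data. Alternatives were another normalization (quantile, median centring), a minimum change of 2-fold, limma at an unadjusted p under 0.005, trend and robust estimation, the compared groups alone, the one-way test of the methods, dim clusters left out, the mean of a gene's clusters, the replicate number as a block and each array left out in turn. Their use on the partner lists was added after the values had been seen.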

Additional observations from a re-analysis of the deposited data

How the results depend on the processing

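The number of members called depended on the test and on single arrays. Between VHL+ and VHL- cells under normoxia 6 were called, and 2 (VCAM1 and L1CAM) in a fit to the compared groups alone, 0 by the methods' one-way test at an unadjusted p under 0.005 and 0 by that test after Benjamini-Hochberg. With each array left out in turn the number ran from 3 to 8. Under hypoxia 8 were called, and 5 with a minimum change of 2-fold, 5 after quantile normalization, 4 after median centring, 2 by the one-way test at an unadjusted p under 0.005, 0 by that test after Benjamini-Hochberg, and 1 to 12 with arrays left out. For hypoxia in VHL+ cells 0 were called, and 3 by limma at an unadjusted p under 0.005, 3 with trend and robust estimation, 3 in the compared groups alone and 0 to 4 with arrays left out. For hypoxia in VHL- cells 0 were called, and 1 by the one-way test at an unadjusted p under 0.005 and 0 to 3 with arrays left out. For the interaction 0 were called, and 1 by limma at an unadjusted p under 0.005, 1 with trend and robust estimation and 0 to 3 with arrays left out. Over the 14 calls of single members and their alternatives, 186 kept the call, 80 lost it and 0 reversed. Many alternatives change only the test, the spread or the threshold, or leave out an array outside the comparison. Their fold change is that of the first fit, so a reversal was not possible there. The alternatives at an unadjusted p under 0.005 in limma and at a minimum change of 2-fold also reuse the p values of the first fit. A call kept there is not a separate test, and the former kept all 14. The cause of the lost calls was not tested. Over all clusters, quantile normalization gave 920 higher and 911 lower under hypoxia, where the deposited scale gave 3437 and 436, and median centring gave 849 and 574. Under normoxia, the deposited scale gave 690 higher and 897 lower, and the compared groups alone 72 and 178.

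The replicate numbers were not taken as pairs, because the labels name no shared batch. The deviations of same-numbered arrays correlated from 0.05 (VHL+ and VHL- cells under normoxia) to 0.60 (VHL- cells under hypoxia and normoxia). Between hypoxia and normoxia in VHL+ cells they correlated at 0.31. Without a block, such shared replicate offsets stay in the spread, which all comparisons share. The replicate number is 1 label for all groups. A block on it cannot take out offsets that differ between VHL+ and VHL- cells. For NCAM1, replicate 1 minus replicate 2 was 0.89 under hypoxia and 1.35 under normoxia in VHL- cells, and -0.35 in both conditions in VHL+ cells. With the replicate number as a block, 8 members were called with VHL under normoxia, 12 under hypoxia, 5 for hypoxia in VHL+ cells (CADM1, ICAM1, ITGA2, ITGB8 and NCAM1), 1 for hypoxia in VHL- cells (ITGA2) and 1 for the interaction (ICAM1). In the block fit p followed the size of the fold change alone, so these are calls at 1 spread shared by all genes. The same held in the compared groups alone for VHL under hypoxia and for hypoxia in VHL+ cells.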
